A study of Homo sapiens with 12 samples.

Results

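The small nucleolar RNA (snoRNA) host genes are 32 long noncoding RNA genes, chosen by symbol alone: every GENCODE gene named SNHG plus a number, together with GAS5, ZFAS1, DANCR and EPB41L4A-AS1. Of the 35651 genes listed in the tables, 31 were members, and SNHG28 was listed in none. The study introduced LAST-seq, which amplifies the single-stranded RNA of a cell by in vitro transcription without first making double-stranded DNA, and set it beside CEL-seq2 and SMART-seq. Wild-type human embryonic kidney HEK293T cells (from ATCC, not authenticated per the study) were profiled as live sorted single cells by all 3 assays, as single-cell lysate by all 3, and as 15-pg aliquots of total RNA by LAST-seq. Live G1-phase cells of the haploid human line eHAP1, WT or with a knockout of the cohesin loader subunit SCC4 (gene symbol MAU2), were profiled by LAST-seq. The SCC4 KO cells came from clonal expansion after electroporation of Cas9 protein with a guide RNA. No drug treatment of the groups was named, although the haploid line was kept in 10-Deacetylbaccatin-III after subcloning.

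A snoRNA host gene is transcribed by RNA polymerase II and spliced, and the snoRNAs are processed out of its introns. Box C/D snoRNAs guide 2′-O-methylation and box H/ACA snoRNAs guide pseudouridylation, mostly of ribosomal RNA. The spliced exons that remain are what a poly-A based assay counts, and for many hosts this remnant RNA is a known target of nonsense-mediated decay in the cytoplasm. GAS5 and SNHG1 are classic examples of hosts whose transcripts start with the pyrimidine tract also found on ribosomal protein mRNAs.

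In the RefSeq annotation of GRCh38.p14, 27 of the 32 members held a snoRNA inside their span, and 5 held none (SNHG10, SNHG20, SNHG21, SNHG22 and SNHG27). Only RefSeq entries of the class snoRNA were counted, so any guide RNA filed under another class was left out. There were 147 such snoRNAs, 83 of them in SNHG14, the imprinted host on chromosome 15. By class, 12 members held box C/D snoRNAs only, 11 box H/ACA only, and 3 (GAS5, SNHG12 and SNHG25) both, and the 1 snoRNA in SNHG28 was of neither class in that annotation. Exons of 6 members overlapped exons of a protein-coding gene on the same strand (SNHG3 with RCC1, SNHG4 with MATR3, SNHG5, SNHG14 with SNRPN, SNHG20 with SEC14L1, and SNHG28) and those of 14 others on the opposite strand only. The strand setting of the counting was not given in the sources used here, so reads of these members cannot be told apart from those of the overlapping gene. Examples from the hosts that the results turn on are shown 5′ to 3′, with the box C element TGATGA and the last box D element CTGA in capitals for box C/D snoRNAs, and the 3′ ACA in capitals for box H/ACA snoRNAs.
SNORD25, in SNHG1, chr11:62855565-62855631, minus strand: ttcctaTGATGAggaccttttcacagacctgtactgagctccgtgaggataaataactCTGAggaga
SNORD50B, in SNHG5, chr6:85677589-85677659, minus strand: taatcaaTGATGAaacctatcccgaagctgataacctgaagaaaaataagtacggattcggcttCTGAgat
SNORD44, in GAS5, chr1:173865968-173866028, minus strand: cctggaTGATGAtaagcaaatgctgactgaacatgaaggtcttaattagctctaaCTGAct
SNORD60, in SNHG19, chr16:2155023-2155105, minus strand: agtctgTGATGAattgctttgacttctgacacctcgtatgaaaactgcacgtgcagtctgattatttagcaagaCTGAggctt
SNORD104, in SNHG25, chr17:64146078-64146157, plus strand: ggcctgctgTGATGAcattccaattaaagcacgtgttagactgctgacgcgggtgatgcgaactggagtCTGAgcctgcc
SNORD12C, in ZFAS1, chr20:49278945-49279023, plus strand: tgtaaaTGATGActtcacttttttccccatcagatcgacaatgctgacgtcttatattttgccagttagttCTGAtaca
SNORA78, in SNHG9, chr16:1965184-1965310, plus strand: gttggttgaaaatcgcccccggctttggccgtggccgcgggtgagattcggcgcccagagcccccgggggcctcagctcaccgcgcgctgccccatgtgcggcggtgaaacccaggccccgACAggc
SNORA73B, in SNHG3, chr1:28508558-28508762, plus strand: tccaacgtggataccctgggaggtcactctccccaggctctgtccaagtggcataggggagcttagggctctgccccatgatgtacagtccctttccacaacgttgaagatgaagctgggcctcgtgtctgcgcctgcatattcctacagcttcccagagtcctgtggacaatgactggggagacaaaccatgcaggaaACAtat

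The values below are counts of the host genes from poly-A based assays, not of separate snoRNA genes. In GENCODE v44, the exons of SNHG1, SNHG8, SNHG9, SNHG15, SNHG19 and EPB41L4A-AS1 form 1 block over the whole gene, with the snoRNAs inside. Reads from a snoRNA or an unspliced intron there could count for the host, which was not checked. Only 15 of the 147 snoRNAs had a row in the tables, and together these held between 1.80 and 35.3 CPM in a library or batch, where CPM (counts-per-million) is the count scaled to the total of all genes.

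Promoters were matched by symbol in the RefSeq table for 28 members, and SNHG6, SNHG9, SNHG15 and SNHG25 had no entry. A run of at least 8 bases made only of C and T, touching the 10 bases on either side of the annotated start, was present in 8 of the 28 (28.6%), in 49 of 62 ribosomal protein genes (79.0%) and in 5350 of all 35116 promoters (15.2%). The median longest run was 6 bases for members, 11 for ribosomal protein genes and 4 for all promoters. Members therefore sat nearer to all promoters than to ribosomal protein genes by this count, which is a description of letters on the sense strand. GAS5 and SNHG1, the examples named above, had longest runs of 3 and 7 bases, so neither was counted. The 60-base GAS5 window (chr1:173869016-173869075, minus strand) lay wholly outside its GENCODE span, which ends at 173868882. The count therefore depends on the RefSeq starts used. Promoters are shown for the host with the highest HEK293T level, the host with the highest eHAP1 level, and the host whose noise is described further on. Each line spans 30 bases before to 30 after the RefSeq start, with the longest C and T run in capitals.
SNHG5, chr6:85678704-85678763, minus strand: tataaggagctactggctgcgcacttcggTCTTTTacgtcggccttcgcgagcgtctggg
SNHG1, chr11:62855856-62855915, minus strand: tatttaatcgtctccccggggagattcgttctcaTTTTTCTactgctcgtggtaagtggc
SNHG12, chr1:28581844-28581903, minus strand: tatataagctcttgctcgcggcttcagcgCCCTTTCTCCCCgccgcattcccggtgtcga

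Each LAST-seq or CEL-seq2 table of HEK293T held 10 wells with 62816 to 195438 UMIs per well, and the eHAP1 tables held 73 to 77 cells per batch with 18022 to 926415 UMIs. SMART-seq tables held reads, 747676 to 818813 per well. All 6 SMART-seq single cells were near-identical to a well of SMART-seq lysate replicate 2, which left 10 other wells there. Levels of the leading hosts in that replicate are given with and without these matching wells, and its share of reads with them only. The WT and SCC4 KO tables shared 145 cell barcodes (of 148 WT and 153 SCC4 KO cells), and the highest Pearson r of log counts was 0.923 between a WT and an SCC4 KO cell against 0.961 between 2 WT cells. Of the HEK293T markers, NEFL was present in HEK293T, with 0 UMIs in both WT batches but 51 and 169 in the SCC4 KO batches, whereas PAX2 had 0 and 2 UMIs in the LAST-seq HEK293T cells and 110 and 197 in eHAP1 WT. Leukocyte markers (PTPRC, CD3E) were at or near 0 in every library. UMI tables are sums over wells of 1 pool or batch. UMIs tag the 3′ end once per molecule, so CPM of UMIs were compared between genes without division by length, and SMART-seq reads were divided by annotated exon length.

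Together the members held a small share of all transcripts, larger in eHAP1 than in HEK293T. LAST-seq of HEK293T single cells gave 0.258% (exact 95% binomial interval 0.250 to 0.267%) and 0.252% (0.244 to 0.260%) of gene UMIs in replicates 1 and 2. The share was 0.240% in 15-pg RNA and 0.322% in lysate. CEL-seq2 gave 0.211% and 0.194% in single cells and 0.186% in lysate, so both CEL-seq2 cell libraries lay below both LAST-seq cell libraries. SMART-seq gave 0.175% of reads in single cells and 0.139% and 0.148% in lysate, the last including the wells that match single cells. In eHAP1 the share was 0.574% and 0.583% in the WT batches and 0.478% and 0.473% in the SCC4 KO batches. All intervals given here are exact 95% intervals, which take in the error of counting and nothing else. In RNA extracted from many cells, less RNA per cell and fewer cells with the RNA cannot be told apart.

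A few hosts carried most of this share. In LAST-seq HEK293T cells the level (CPM, replicates 1 and 2) was highest for SNHG5, a box C/D host of chromosome 6, at 375 and 418. SNHG1, which holds 8 box C/D snoRNAs, followed at 286 and 325. These ranges did not overlap each other or the next gene. SNHG9 (232 and 223), SNHG8 (238 and 210.0), SNHG3 (251 and 175), GAS5 (195 and 197) and DANCR (201 and 185) had ranges that overlapped with at least one neighbour, so their order was not resolved. SNHG25 (162 and 102) and SNHG6 (113 and 139.8) lay below them and overlapped each other. The top 5 members held 53.5% and 54.4% of all member UMIs.

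In eHAP1 WT the order was different at the top. SNHG1 led with 1045 and 1069 CPM in batches 1 and 2, followed by SNHG6 with 796 and 815, SNHG9 with 649 and 663, and SNHG25 with 577 and 584. In the next step, SNHG19 (422 and 428), DANCR (409 and 417) and SNHG3 (402 and 408) had overlapping counting intervals, for example 407 to 437 for SNHG19 and 395 to 424 for DANCR in batch 1. SNHG8 (380.4 and 386) stood below them and overlapped SNHG3 in its interval. ZFAS1 (224 and 229.7), SNHG7 (166 and 166), GAS5 (162 and 163) and SNHG5 (102 and 103) made up the lower middle, and SNHG5 was 12th of the 26 named members here against 1st in HEK293T.

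Among the remaining H/ACA hosts, EPB41L4A-AS1 had 66.0 and 87.4 CPM in LAST-seq HEK293T cells and 61.3 and 63.2 in eHAP1 WT. SNHG7, SNHG4, SNHG17, SNHG15 and SNHG11 lay between 11.9 and 78.2 in HEK293T, the extremes being SNHG11 in replicate 1 and SNHG7 in replicate 2. Among the remaining box C/D hosts, ZFAS1 had 84.9 and 97.4, SNHG19 67.4 and 53.6, and SNHG16 26.7 and 15.9. SNHG26, SNHG29, SNHG30 and SNHG14 lay between 1.40 and 13.9, and SNHG18 had no UMI in any HEK293T library. SNHG12, which holds snoRNAs of both classes, had 42.8 and 30.5, and the hosts without a RefSeq snoRNA, SNHG20 and SNHG10, had 26.0 and 13.2 and 20.4 and 10.6. The 6 members under a mean of 1 UMI per well in every library were SNHG21, SNHG22, SNHG27, SNHG28, SNHG31 and SNHG32, with at most 0.44 UMI per well and 0 to 70 UMIs over all UMI tables.

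**Figure D1:**
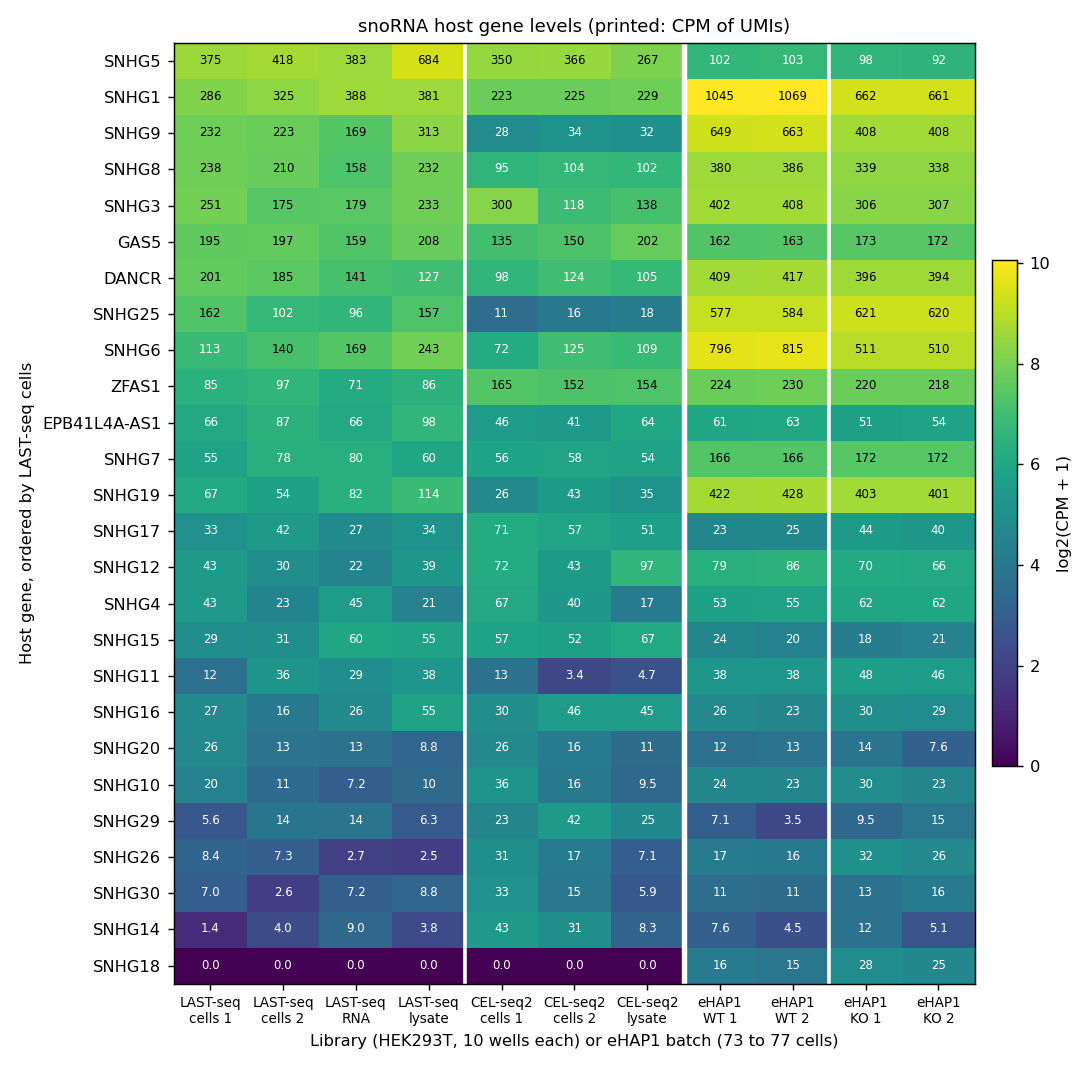
Level of each of the 26 named host genes (rows) in each HEK293T library or eHAP1 batch (columns), with the colour on a log2(CPM + 1) scale and the printed number in CPM. SNHG5 is the first row in HEK293T by LAST-seq, SNHG1, SNHG6, SNHG9 and SNHG25 stand out in eHAP1 WT with 577 to 1069, and SNHG9 and SNHG25 are low in the 3 CEL-seq2 columns with 10.9 to 34.3.

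The order of the 26 members was close between libraries of one assay and less so between assays. Spearman's rho across the members, which are not independent replicates, was 0.958 between the LAST-seq cell libraries, 0.947 and 0.955 between replicate 1 and the LAST-seq RNA and lysate, and 0.667 and 0.731 between replicate 1 and the CEL-seq2 cell libraries. It was 0.870 between LAST-seq replicate 1 and eHAP1 WT batch 1, and 0.469 between LAST-seq replicate 1 and SMART-seq cells. By SMART-seq the leading hosts were SNHG15, with 150.1 in cells and 113 and 114 in lysate (TPM, reads per kilobase of exon scaled to a common sum), and SNHG9, with 145, 122 and 121. GAS5 followed with 95.7, 56.1 and 80.2, and SNHG30 with 81.6, 79.2 and 63.5. Without the wells that match single cells, lysate replicate 2 gave 90.3 for SNHG15, 106 for SNHG9, 68.2 for GAS5 and 53.6 for SNHG30. SNHG15 was 17th and 16th by LAST-seq, and SNHG30 was 23rd and 25th, on a scale that does not use exon length.

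The tables of reads show how often each captured molecule was sequenced. SNHG6 had 12.6 and 7.36 reads per UMI in LAST-seq replicates 1 and 2, against medians over genes of 4.23 and 4.01, which placed it at percentiles 98.1 and 94.5. In CEL-seq2 replicate 1 it had 1.61 against a median of 2.34, at percentile 17.6. SNHG7 had 8.10 and 5.80 reads per UMI by LAST-seq and 2.05 by CEL-seq2. The members lay on both sides of the median within each library, with SNHG15 among the lowest at 2.64 and 2.49 by LAST-seq.

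The comparison of LAST-seq with CEL-seq2 asks which host RNAs each chemistry captures from the same cell line. SNHG25 and SNHG9 were about an order of magnitude higher by LAST-seq, and SNHG14 was lower by a like factor. SNHG8, EPB41L4A-AS1 and DANCR were also higher by LAST-seq, but none of these 3 calls held with either LAST-seq library left out, and 19 of the 25 members tested did not pass. All of these genes were tested in one fit of 13055 genes with 2 libraries per assay (edgeR quasi-likelihood, Benjamini-Hochberg).

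SNHG25 (chr17:64145937-64146476, plus strand) is the shortest named member, with 340 nt of annotated exon, and holds SNORD104 and an H/ACA snoRNA. LAST-seq counted 231 and 154 UMIs of it, and CEL-seq2 counted 17 and 23. Per well, the LAST-seq counts ran from 8 to 31 and the CEL-seq2 counts from 0 to 5, so no well of one assay overlapped one of the other. The log2 fold change was 3.63 ± 0.43 (SE, n = 2 libraries per assay), which is 12.4-fold, with an edgeR adjusted p of 0.00156. SNHG9 (chr16:1964895-1965509, plus strand, 615 nt) hosts SNORA78 and had 330 and 337 UMIs by LAST-seq and 43 and 50 by CEL-seq2. Its wells ran from 18 to 50 by LAST-seq and from 0 to 13 by CEL-seq2, again without overlap. The log2 fold change was 3.20 ± 0.33 (SE), which is 9.18-fold, with an edgeR adjusted p of 0.000915.

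SNHG8, the host of SNORA24, had 339 and 317 UMIs by LAST-seq and 147 and 152 by CEL-seq2. Its log2 fold change was 1.50 ± 0.30 (SE, edgeR adjusted p 0.0106). EPB41L4A-AS1 had 94 and 132 against 72 and 60 UMIs, with a log2 fold change of 1.14 ± 0.32 (SE, edgeR adjusted p 0.0349). DANCR had 287 and 279 against 152 and 180 UMIs, with a log2 fold change of 1.13 ± 0.31 (SE, edgeR adjusted p 0.0338). For these 3 genes the library sums of the assays did not overlap, but the counts of single wells did. SNHG14 (chr15:24978583-25420336, plus strand), the longest host with 141 exon blocks, had 2 and 6 UMIs by LAST-seq and 67 and 45 by CEL-seq2. It was 10.5-fold lower by LAST-seq in the fit (log2 -3.40 ± 0.62, SE, edgeR adjusted p 0.00764), and the exons counted for it overlap those of SNRPN on the same strand, so its counts are uncertain.

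In all, 5 of 25 members were higher, against 9.1% of all genes tested, and 1 was lower, against 12.4%, so 6 of 25 stood beside 21.5% of all genes in either direction. The median log2 difference was 0.41 over the members and -0.08 over all genes. At an unadjusted p under 0.05, 12 members passed, beside 35.9% of all genes. SNHG19, another short host with 614 nt, had 96 and 81 UMIs against 40 and 63, and its log2 difference of 1.13 ± 0.41 (SE) missed the threshold with an edgeR adjusted p of 0.0791. The other members without a call ranged from -1.93 (SNHG30) to 1.89 (SNHG11).

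Scaling and single libraries mattered here. Scaled to total UMIs in place of TMM, 689 genes were higher and 2255 lower by LAST-seq in place of 1188 and 1613, the median over all genes was -0.44, and 3 members were higher and 2 lower. With LAST-seq replicate 1 or 2 left out, SNHG9, SNHG25 and SNHG14 still passed and no other member did, beside 7.19% and 6.83% of all genes. The edgeR adjusted p was then 0.0764 and 0.0584 for SNHG8, 0.0728 and 0.135 for EPB41L4A-AS1 and 0.157 and 0.109 for DANCR. With total UMIs it was 0.0913 for DANCR and 0.142 for EPB41L4A-AS1, and DESeq2 gave an adjusted p of 0.0646 for EPB41L4A-AS1. EPB41L4A-AS1 was also not called with either CEL-seq2 library left out (edgeR adjusted p 0.0830 and 0.0692). With CEL-seq2 replicate 1 or 2 left out, 8 or 9 members passed, beside 20.5% and 21.6% of all genes. A lone library was then assumed to vary like the pair of the other assay.

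Both of the members with the largest rise were short, so short genes were counted as a description, with a limit of 700 nt chosen after their values were seen. Of 911 other genes under that length, 14.9% were higher and 17.7% lower by LAST-seq, with a median log2 difference of 0.08. Of 12075 longer genes, 8.64% were higher and 11.9% lower, with a median of -0.09.

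**Figure D2:**
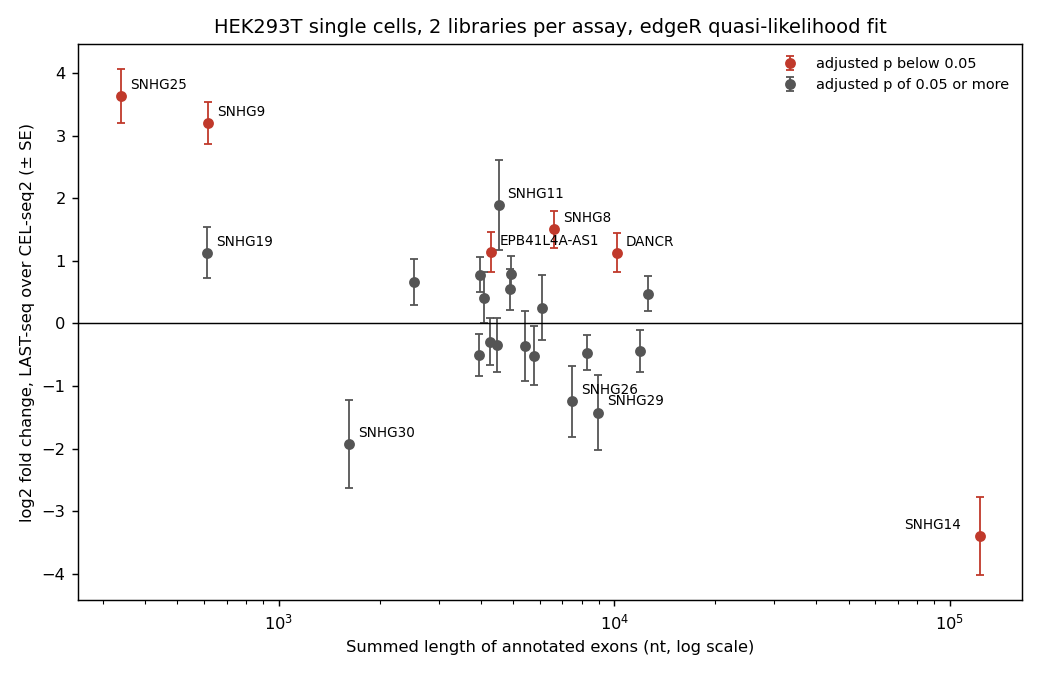
log2 fold change of LAST-seq over CEL-seq2 in HEK293T cells (vertical, ± SE, 2 libraries per assay) against the summed length of annotated exons (horizontal, log scale) for the 25 host genes tested. SNHG25 and SNHG9 sit at 3.63 and 3.20 at the short end, SNHG19 of like length at 1.13, and SNHG14 at -3.40 at the long end.

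Genes that act on the hosts and their snoRNAs were counted in the same fit. Of the box C/D core proteins, SNU13 was higher by LAST-seq (594 and 634 against 358 and 416 UMIs, log2 1.02) and the other 3 did not pass. Of 6 box H/ACA genes, DKC1, the pseudouridine synthase, was higher (466 and 576 against 332 and 253 UMIs, log2 1.21). Of 6 snoRNP assembly genes tested, RUVBL1 was higher (560 and 482 against 215 and 188) and NUFIP1 lower (12 and 17 against 67 and 57). No nonsense-mediated decay gene was higher and 2 of 10 were lower, SMG6 (0 UMIs in both LAST-seq libraries against 14 and 21, at least 5.69-fold lower with a floor of 3 UMIs per library) and UPF2 (11 and 18 against 119 and 87). Of 10 protein-coding snoRNA hosts, TPT1 (3647 and 3854 against 2253 and 2506) and EEF2 (3480 and 3784 against 2863 and 1936) were higher, and EIF4A1 had 0 UMIs in both LAST-seq libraries against 131 and 47, at least 28.9-fold lower with the same floor. Of 77 ribosomal protein genes 18 were higher and 5 lower, led by RPL39 and RPL30 upward and RPS10 and RPL21 downward.

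Against lysate and purified RNA, few members moved past 2-fold. The median ratio of LAST-seq cells to lysate was 0.930 over the members and 1.295 over all genes. Members thus lay below the general shift from lysate to cells, and did so with TMM factors too. The median ratio of LAST-seq cells to 15-pg RNA was 1.161 over the members and 1.032 over all genes. With a 2-fold rule that both cell libraries had to pass, and no test because there was 1 lysate and 1 RNA library, SNHG26 was higher in LAST-seq cells than in lysate (8.42 and 7.29 against 2.51 CPM) and SNHG16 lower (26.7 and 15.9 against 55.1). These were 1 of 23 members in each direction, against 17.4% of genes upward and 4.98% downward. The level of SNHG26 rested on 12, 11 and 2 UMIs, and its counting intervals included 1. With TMM factors the split of all genes moved from 1738 higher and 498 lower to 1286 and 749, and 1 member was higher and 3 lower. With LAST-seq replicate 1 or 2 left out, 4 or 7 members passed, beside 37.6% and 36.1% of all genes. Against 15-pg RNA, SNHG26 was higher (2.71 in RNA, from 3 UMIs) and SNHG14 lower (1.40 and 3.97 against 9.02), 1 of 24 each, against 7.87% and 6.3% of genes. With LAST-seq replicate 1 or 2 left out, 3 or 7 passed, beside 27.8% and 27.9% of all genes.

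In CEL-seq2, 4 of 25 members were higher in cells than in lysate, against 19.2% of genes upward and 3.52% downward, and none was lower by this rule. They were SNHG14 (43.1 and 30.9 against 8.28 CPM), SNHG30 (32.8 and 15.1 against 5.91), SNHG26 (30.9 and 17.2 against 7.10) and SNHG4 (66.9 and 39.8 against 16.6). Each of the 4 had at most 14 UMIs in the lysate. The median ratio of cells to lysate was 1.04 over the members and 1.44 over all genes. With TMM factors the split of all genes went from 2258 higher and 414 lower to 1328 and 666, with 4 members higher. Without CEL-seq2 replicate 2, 8 members passed, beside 44.7% of all genes.

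The HEK293T and eHAP1 WT cells differ in cell line, ploidy, cell cycle gate and pool size, which cannot be told apart here. A group of abundant hosts was lower in HEK293T: SNHG6, SNHG19 and SNHG25 were between 3.56 and 7.97-fold lower, SNHG1, SNHG9, ZFAS1, SNHG7 and DANCR between 2.03 and 3.74-fold lower, and SNHG18 had no UMI there. SNHG5 alone passed the rule in the other direction, between 3.63 and 4.11-fold higher. A gene was called when the ratio of CPM was past 2-fold in the same direction in all 4 pairs of a LAST-seq HEK293T library with a WT batch, with no test, because eHAP1 WT is 1 sample.

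SNHG5 (chr6:85650491-85678932, minus strand) had 375 and 418 CPM in HEK293T against 102 and 103 in eHAP1 WT. Single HEK293T cells ran from 281 to 538, with medians of 394 and 419.6, and eHAP1 cells from 11.4 to 269.6, with medians of 106 and 104. The lines therefore did not overlap at the level of single cells.

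SNHG6, the host of a single box C/D snoRNA, had 113 and 139.8 in HEK293T against 796 and 815. HEK293T cells ran from 67.0 to 223 and eHAP1 cells from 388 to 1134. SNHG19 (chr16:2154792-2155405, minus strand), the host of SNORD60, had 67.4 and 53.6 against 422 and 428, with HEK293T cells from 22.3 to 99.1 and eHAP1 cells from 278 to 684. SNHG25 had 162 and 102 against 577 and 584, with cells from 68.8 to 223 and from 397 to 859. None of these 3 genes overlapped between the lines in any cell.

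SNHG18 (chr5:9546170-9550725, plus strand) had 0 UMIs in all 7 HEK293T UMI libraries and 119 and 179 UMIs in the WT batches, 16.1 and 14.6 CPM. Taking 3 UMIs per library as the floor of a count of 0, it was at least 6.91-fold lower in HEK293T. SNHG1 (286 and 325 against 1045 and 1069) was 3.21 to 3.74-fold lower over the 4 pairs, SNHG9 2.80 to 2.97-fold, ZFAS1 2.30 to 2.70-fold, SNHG7 2.12 to 3.04-fold and DANCR 2.03 to 2.26-fold.

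Of the 25 members above the minimum level, 1 was higher, against 13.3% of 10800 genes, and 9 were lower, against 12% of them. Without a fold limit, 17 were lower in every pair, against 30.5% of all genes, 6 were higher in every pair, against 43.6%, and 2 were mixed. The median ratio was 0.518 over the members and 1.153 over all genes. With TMM factors on top of total UMIs, the median over all genes moved to 0.967 and that of the members to 0.434, the split of all genes from 1441 higher and 1291 lower to 1003 and 1620, and 1 member was higher and 11 lower. GAS5, at 1.195 to 1.214 by total UMIs, lay near the median of all genes. Other members below the limit included SNHG8 (0.543 to 0.625), SNHG12 (0.353 to 0.544), EPB41L4A-AS1 (1.04 to 1.43), SNHG17 (1.33 to 1.79), SNHG15 (1.24 to 1.54), SNHG4 (0.412 to 0.803) and SNHG29 (0.796 to 3.98). Without LAST-seq replicate 1, which leaves fewer pairs to pass, 16 of 25 members did so, beside 38.4% of all genes, and SNHG3 (251 and 175 against 402 and 408) and SNHG30 were among them.

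By role, the other lists did not share one direction. Of 77 ribosomal protein genes 15 were past 2-fold higher in HEK293T and 2 lower, with RPL24 (4.02 to 4.51-fold) among the higher and RPL37 and RPS29 lower. Of the box C/D proteins, which bind the guide RNA, NOP56 was 2.94 to 3.11-fold higher and NOP58 5.18 to 5.64-fold lower. GAR1, 1 of 6 H/ACA proteins, was at least 2.07-fold higher in each pair, and none of 6 assembly genes passed. Of 9 protein-coding snoRNA hosts 3 were higher, led by NOP56 and RACK1, and TAF1D was up to 3.52-fold lower.

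**Figure D3:**
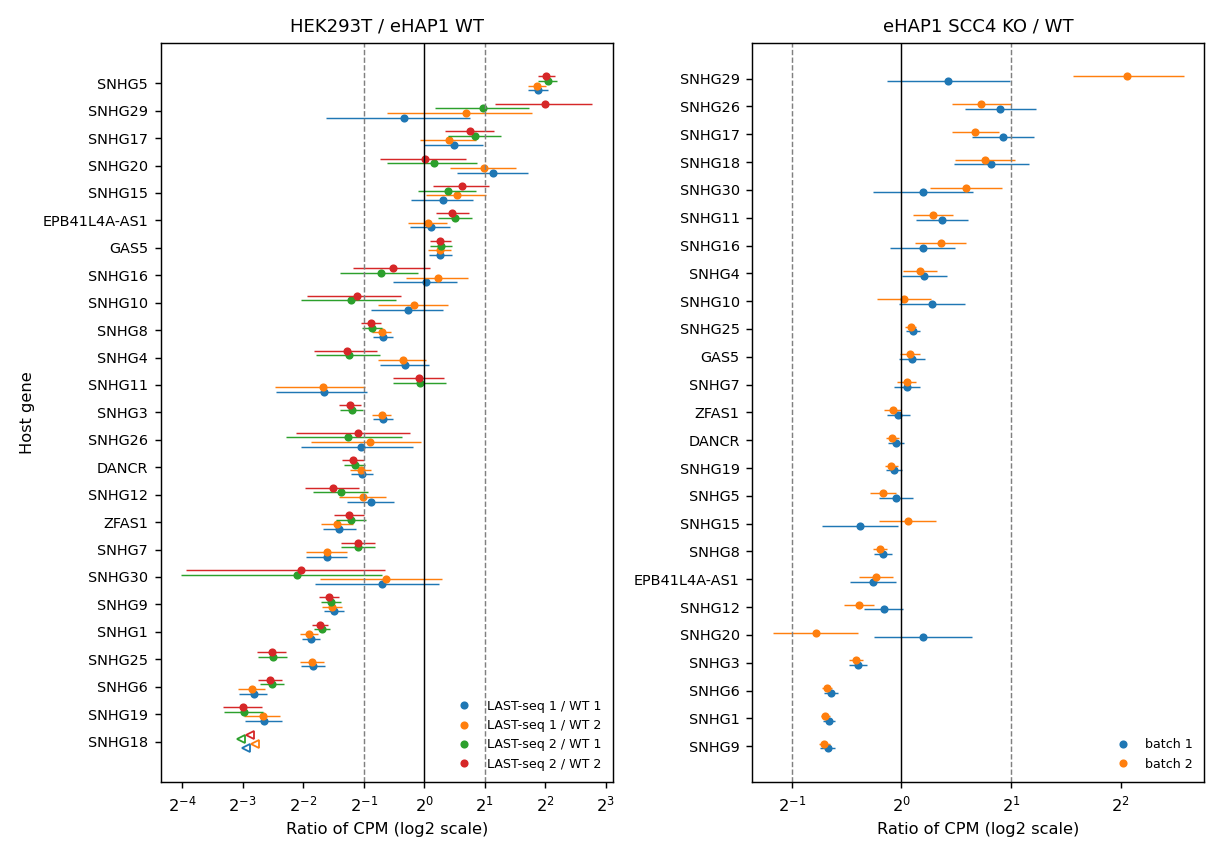
Ratio of CPM on a log2 axis for each host gene, HEK293T over eHAP1 WT for 4 pairs of a library and a batch (left) and SCC4 KO over WT for 2 batches (right), with exact 95% counting intervals as lines, bounds as open triangles and 2-fold as dashed lines. On the left SNHG5 lies at 3.63 to 4.11 and 9 genes lie below 0.5 in all pairs. On the right SNHG9, SNHG1, SNHG6 and SNHG3 lie at 0.615 to 0.762 in both batches.

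The SCC4 knockout removes a subunit of the complex that loads cohesin onto chromatin, and the comparison asks how the hosts respond. The targeted gene, MAU2, had 326 and 507 UMIs in the WT batches and 59 and 169 in the SCC4 KO batches, which is 0.207 and 0.351 of the WT level. Among the hosts, the 3 most abundant in WT cells, SNHG1, SNHG6 and SNHG9, were lower in SCC4 KO by a like factor in both batches, and SNHG3 by less. SNHG17, SNHG26 and SNHG18, all of low level, were higher. None of the 25 members passed 2-fold in both batches, against 3.75% of 9793 genes upward, 3.65% downward and 7.39% in either direction. Each genotype is 1 sample, so ratios are given per batch without a test. Abundant genes, SNHG1, SNHG6, SNHG9 and SNHG3 among them, agreed between the batches of a genotype more closely than sampling noise. Like ratios in both batches are therefore not independent repeats for these hosts, and their counting intervals may not hold. Whether the counts hold the authors' batch adjustment is not given, and its part in this was not tested.

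SNHG1 (chr11:62851978-62855953, minus strand) had 1045 and 1069 CPM in WT and 662 and 661 in SCC4 KO, ratios of 0.634 (interval 0.610 to 0.658) and 0.618 (0.601 to 0.636). WT cells ran from 723 to 1389, with medians of 1046 and 1054, and SCC4 KO cells from 459 to 975, with medians of 639.6 and 661. The genotypes therefore overlapped in single cells although their medians stood apart. SNHG6 had ratios of 0.641 and 0.626, with WT medians of 778 and 798 and SCC4 KO medians of 512 and 504. SNHG9 had ratios of 0.629 and 0.615, with WT medians of 624 and 667 and SCC4 KO medians of 397 and 401. SNHG3, the host of both SNORA73 copies, had ratios of 0.762 and 0.751, with WT medians of 399 and 402 and SCC4 KO medians of 304 and 305. In all 4 genes the range of single cells overlapped between genotypes.

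SNHG17, which holds 4 H/ACA snoRNAs, had 23.3 and 24.8 CPM in WT and 44.3 and 39.6 in SCC4 KO, ratios of 1.90 and 1.60. SNHG26 had 17.4 and 15.6 in WT and 32.5 and 25.9 in SCC4 KO, ratios of 1.87 and 1.66. SNHG18 had 16.1 and 14.6 in WT and 28.4 and 24.7 in SCC4 KO, ratios of 1.76 and 1.69. SNHG29 differed between batches: its ratio was 1.34 (interval 0.913 to 1.98) in batch 1 and 4.16 (2.96 to 5.96) in batch 2, from 52 and 43 UMIs in WT and 61 and 170 in SCC4 KO. SNHG20 also went both ways, with 1.146 and 0.582. Other abundant hosts stood close to 1, such as SNHG25 (1.08 and 1.06), SNHG19 (0.956 and 0.939), DANCR (0.967 and 0.945), GAS5 (1.07 and 1.05) and ZFAS1 (0.982 and 0.948).

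The counting interval lay below 1 in both batches for 6 of the 25 members, against 23.7% of all genes, and above 1 for 6, against 26.8%, so both counts stood near the background. The median ratio was 0.965 over members and 1.02 over all genes. Summed over all members, the level went from 5798 CPM in WT to 4747 in SCC4 KO, a difference of -1051. SNHG1, SNHG6, SNHG9 and SNHG3, picked after their values were seen, account for -1047 of it, and the sum of the others was 2866 and 2862.

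As an alternative, batch sums were tested with edgeR. Without a block it called 10 of 29 members (3 up, 7 down, against 26.7% of 16827 genes), and 13 members had an unadjusted p under 0.05, beside 36.7% of all genes. With the batch as a replicate block it also called 10 (4 up, 6 down, against 30.3%), losing SNHG8 and adding SNHG29. The called members included SNHG9 (log2 -0.75), SNHG1 (-0.74), SNHG6 (-0.73), SNHG3 (-0.47), SNHG17 (0.72), SNHG18 (0.72) and SNHG26 (0.75). The batches of a genotype are not independent cultures as far as the labels say. For genes with at least 1000 UMIs, they differed by less than the sampling noise, with a median chi-square of 0.174 over 2785 WT genes and 0.128 over 2585 SCC4 KO genes, against 0.455 for sampling alone and 4.92 between the LAST-seq HEK293T libraries. For genes with at least 100 but under 1000 UMIs the batches differed by more than sampling. The median chi-square was then 1.46 over 7598 WT genes and 1.26 over 7798 SCC4 KO genes, against 2.56 between the LAST-seq HEK293T libraries. Batches closer than sampling were thus a feature of abundant genes only. The p-values rest on batches of 1 sample per genotype at any level, and may understate how far separate samples would differ. The SCC4 KO line is clonal, so clone and genotype cannot be told apart.

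In the other lists, RPL3 (2.29 to 2.33-fold higher in SCC4 KO) was the only ribosomal protein gene of 77 past 2-fold. No box C/D, H/ACA or assembly gene and no protein-coding host passed.

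Noise was described as the coefficient of variation (CV) over cells, set against the running median of CV over all genes of like mean. The members did not stand apart as a group. In eHAP1 they were above the trend in 17 of 24 (WT batch 1, 49.6% of all genes), 14 of 24 (WT batch 2, 49.6%), 13 of 25 (SCC4 KO batch 1, 49.5%) and 15 of 25 (SCC4 KO batch 2, 49.7%). Their median log2 ratio to the trend was between 0.00 and 0.05. In HEK293T, 10 of 23 and 16 of 23 were above it in the LAST-seq cell libraries (49.7% and 49.8% of all genes), and 15 of 25 and 12 of 24 in the CEL-seq2 cell libraries (49.6% and 49.9%). In the inputs without cells, 7 of 22 were above it in LAST-seq RNA (49.9%), 13 of 19 in LAST-seq lysate (49.8%) and 10 of 19 in CEL-seq2 lysate (49.7%). These libraries hold 10 wells each, so a CV there is coarse. For example, SNHG1 had a CV of 1.13 in CEL-seq2 cell replicate 2, at percentile 99.2, where 1 cell held 1092 CPM against a median of 154, and a CV of 0.355 in replicate 1. For comparison, 21, 24, 22 and 19 of 77 ribosomal protein genes were above the trend in the 4 eHAP1 batches.

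SNHG1, SNHG6, SNHG11, SNHG12, SNHG19 and SNHG26 were above the trend in all 4 eHAP1 batches. The share of all genes above it in all 4 was not counted, so this list is a description. The lowest log2 ratios of SNHG6 and SNHG26 were 0.0014 and 0.00057, which is at the trend. SNHG1 had a CV of 0.130 and 0.119 in WT and 0.166 and 0.138 in SCC4 KO, against 0.103, 0.0808, 0.136 and 0.0992 for counting noise alone. SNHG5 was at the other end, with log2 ratios from -0.36 to 0.15, and lay at percentile 2.63 in SCC4 KO batch 1. SNHG9 followed the trend, with log2 ratios from -0.03 to 0.02.

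SNHG12 had the largest excess, with log2 ratios to the trend of 0.27 and 0.60 in WT and 0.49 and 0.41 in SCC4 KO, at percentiles 90.2, 98.4, 98.4 and 97.2 of all genes. Its level per cell ran from 0 to 212 CPM with a median of 77.8 in WT batch 1, and from 15.5 to 371 with a median of 76.6 in WT batch 2. In SCC4 KO it ran from 14.3 to 374 (median 65.7) and from 6.30 to 197 (median 64.0). Without the cell of the highest level in each batch, an alternative chosen after the values were seen, the ratios were 0.16, -0.06, -0.12 and 0.26, at percentiles 79.0, 36.2, 23.5 and 90.9. The excess in WT batch 2 and SCC4 KO batch 1 therefore rested on 1 cell each.

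**Figure D4:**
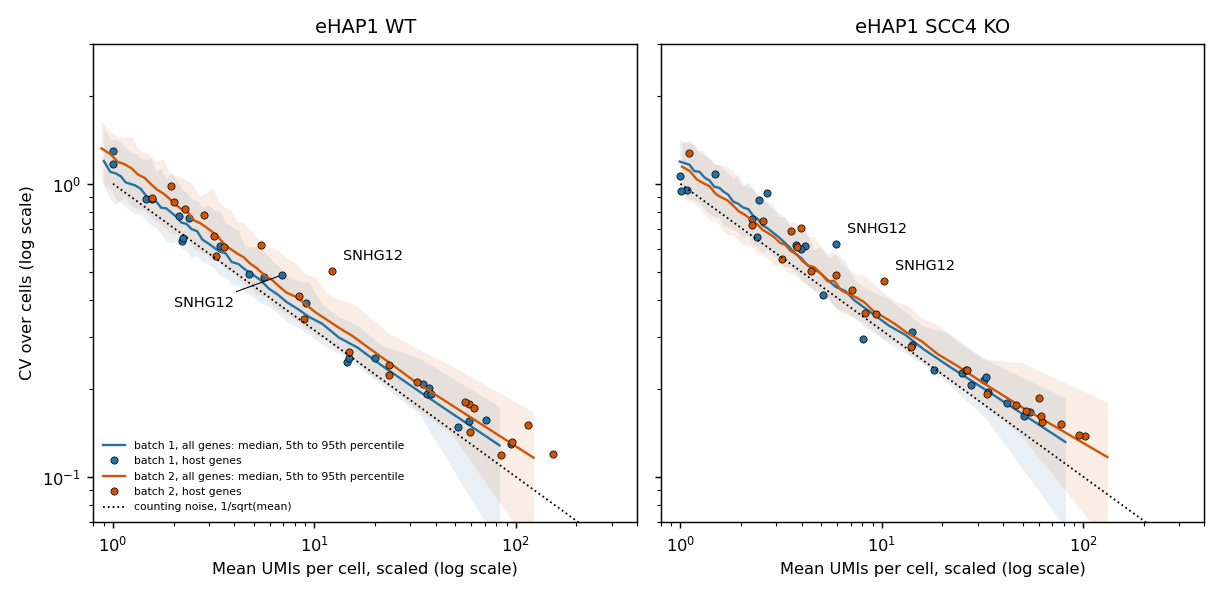
CV over cells (vertical, log scale) against mean UMIs per cell scaled to the median total (horizontal, log scale) in eHAP1 WT (left) and SCC4 KO (right), with host genes as points, the median of all genes as lines, their 5th to 95th percentile as bands and counting noise as a dotted line, for each batch. Most host genes follow the median of all genes, and SNHG12 stands above it with CVs of 0.488, 0.502, 0.625 and 0.464.

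Correlations between hosts from cell to cell were close to 0 once UMIs were divided by the total of the cell. For all pairs of members with a mean of at least 2 UMIs, the median Spearman correlation was 0.0122 over 190 pairs and 73 cells (WT batch 1), 0.0162 over 253 pairs and 75 cells (WT batch 2), 0.0122 over 210 pairs and 77 cells (SCC4 KO batch 1) and 0.0246 over 276 pairs and 76 cells (SCC4 KO batch 2). The medians over all pairs of genes were 0.000586, 0.00464, 0.000881 and 0.00174, and those over pairs of ribosomal protein genes were 0.0299, 0.0419, 0.0238 and 0.0739. Cells of a batch share their pool and differ in depth. Without division by the total, the medians of members were 0.462, 0.402, 0.292 and 0.242, and those of all pairs 0.341, 0.300, 0.185 and 0.180.

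Single pairs were not stable between batches. Over the 171 pairs present in all 4 batches, 20 were positive in every batch, 2 were negative in every batch, and none exceeded 0.2 in every batch. The shares of all gene pairs under these rules were not counted, so whether the members differ from them in this was not tested. The highest value of any pair, 0.395 for SNHG6 and SNHG7 in WT batch 2, was 0.104, -0.0473 and 0.0232 in WT batch 1 and the SCC4 KO batches. SNHG3 and SNHG8 had 0.376 in WT batch 1 and 0.0895, 0.0992 and 0.0279 elsewhere. GAS5 and SNHG4, with 0.137, 0.113, 0.158 and 0.0744, had the highest minimum over the batches. Across pairs, Spearman's rho between the batches was -0.161 in WT and -0.0252 in SCC4 KO.

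The share of UMIs held by all members in a cell was narrow. It ran from 0.496 to 0.641% in WT batch 1, from 0.527 to 0.656% in WT batch 2, from 0.406 to 0.574% in SCC4 KO batch 1 and from 0.408 to 0.567% in SCC4 KO batch 2. The 10 non-member genes most like the summed members, by the smaller of their Spearman correlations over the WT batches among 5934 genes, were SRP72, MT-ND3, KTN1, NOP58, SREK1, SYTL4, SGTA, NASP, IRS2 and RNF41, with 0.229 to 0.281. NOP58, a core protein of box C/D snoRNPs, had 0.274 and 0.449 in WT and 0.258 and 0.192 in SCC4 KO. SRP72 had 0.281 and 0.321 in WT but 0.114 and 0.0132 in SCC4 KO. In SCC4 KO, KTN1 had 0.215 and -0.0856, SREK1 -0.0265 and 0.00150, and SGTA -0.132 and 0.0133. NASP had 0.0234 and -0.0241, IRS2 0.0554 and -0.0892, and MT-ND3 0.0193 and 0.212. RNF41 had a value in batch 2 only (0.214), and SYTL4 had none. Most of the genes thus did not keep their WT values. The genes were picked for their WT values, so only the SCC4 KO values are free of that choice.

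**Figure D5:**
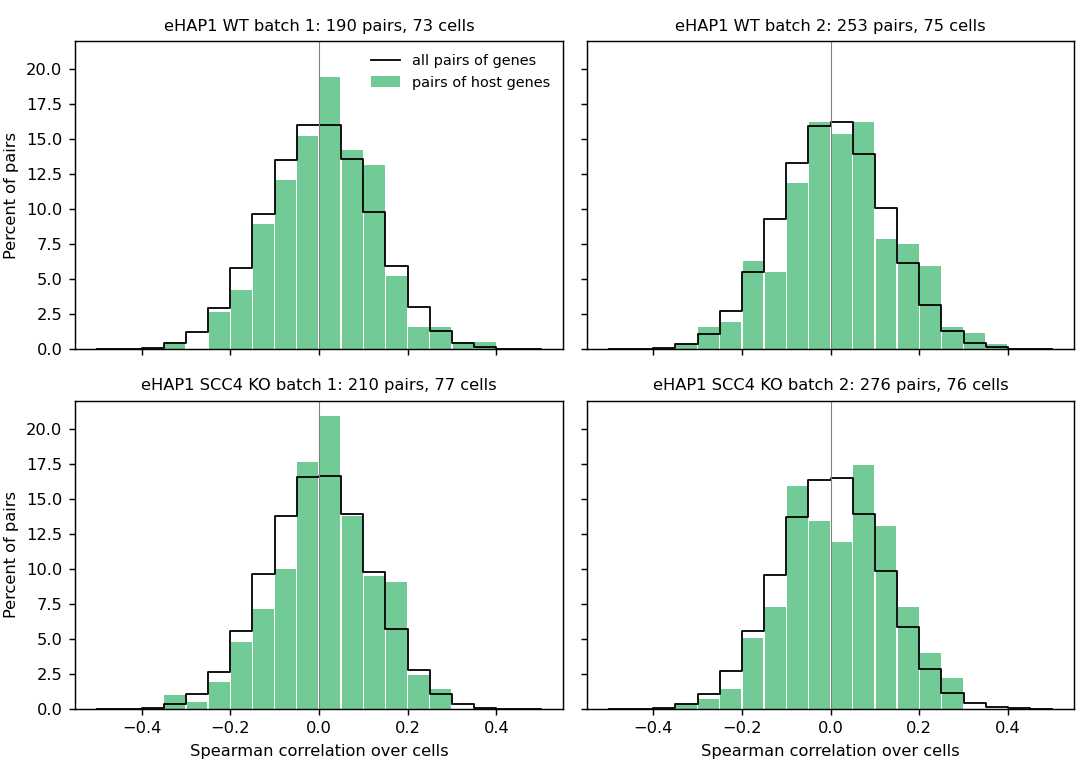
Share of gene pairs (percent, vertical) by Spearman correlation over cells (horizontal) in each eHAP1 batch, with pairs of host genes as bars and all pairs of genes as a line. The bars lie close to the line, with medians of 0.0122 to 0.0246 for host genes.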

How the data were processed

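The members, gene lists and tests were chosen with earlier results of these data known. The deposited values are counts. Per the study's methods, the authors demultiplexed reads with bcl2fastq (version 2.20), trimmed them with cutadapt and mapped them to GRCh38 with GENCODE genes and spike-ins by zUMIs. Exonic UMIs were counted, or reads for SMART-seq. The methods also describe drawing reads to equal depth across the assays, without saying whether this covered the eHAP1 cells. Whether the eHAP1 counts hold the authors' batch adjustment is not given in the sources used here.

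From these counts, spike-in rows were left out and UMIs were summed per library or batch, the level being counts-per-million (CPM) of gene UMIs. SMART-seq reads were divided by exon length (GENCODE v44), which matched 99.5% of the listed genes. LAST-seq and CEL-seq2 cell sums were tested with edgeR 4.0.16 (quasi-likelihood, TMM, genes with at least 20 UMIs, Benjamini-Hochberg threshold 0.05). The replicates used different spike-in mixes and are not stated to be separate cultures, so p-values may measure technical spread only. Other comparisons, with 1 sample in a group, used a 2-fold rule in every pair of libraries for genes reaching a mean of 1 UMI in each well, with exact conditional intervals (scipy 1.17.1). CVs were set against a running median over genes of like mean, and Spearman correlations needed a mean of at least 2 UMIs. Depth ranged from 18022 to 926415 UMIs per well. Named genes were all members with a mean of at least 1 UMI, up to 2 genes called in each direction of each list, MAU2, and the 10 genes most like the summed members. The scripts were tested on simulated data. Alternatives included DESeq2 1.42.0, other scalings and minimums, each library left out, and, chosen after the data were seen, the removal of the deepest WT cells and of the highest SNHG12 cell. Some list and marker genes are not reported here.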

Additional observations from a re-analysis of the deposited data

How the results depend on the processing

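Depth limited the low members. Leaving out a library leaves fewer pairs to pass the fold rule, so those counts rise for all genes too. The share of all genes passing the fold rule was then 29.3 to 38.4% between HEK293T and eHAP1 WT. It was 36.1 to 37.6% between LAST-seq cells and lysate, and 27.8 to 27.9% between LAST-seq cells and RNA. Between CEL-seq2 cells and lysate it was 30.9 to 44.7%. Members called between LAST-seq and CEL-seq2 (6) ranged from 3 to 9 with 1 library left out, those between HEK293T and eHAP1 WT (10) from 11 to 16, those between LAST-seq cells and lysate (2) from 4 to 7, those between LAST-seq cells and RNA (2) from 3 to 7, and those between CEL-seq2 cells and lysate (4) from 5 to 8. With TMM factors the LAST-seq lysate count was 4, beside 20.3% of all genes. For SCC4 KO against WT, single batches gave 0 and 1 (SNHG29 in batch 2), beside 15.1% and 15.4% of all genes. DESeq2 gave 10, beside 26.7%. With edgeR it was 10 with no replicate block, beside 26.7%, and 10 with a replicate block for batch, beside 30.3%. These tests use another rule, an adjusted p with no fold limit.

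Without scaling to the total, members above the noise trend were 26.3% in CEL-seq2 lysate and 36.0% in SCC4 KO batch 2, and the median pair correlations were 0.462, 0.402, 0.292 and 0.242 in the 4 eHAP1 batches. With mitochondrial genes left out of the total, the members' share was 0.309% and 0.294% in LAST-seq cells, 0.295% in RNA, 0.398% in lysate, 0.218% in CEL-seq2 lysate, 0.724% and 0.739% in WT and 0.605% and 0.6004% in SCC4 KO.

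Some log2 differences between LAST-seq and CEL-seq2 that were not called changed sign. SNHG20 was -0.13 with total UMIs and ran from -0.36 to 0.69 with 1 library left out, SNHG3 from -0.078 to 1.04, SNHG4 from -0.93 to 0.086 and SNHG10 from -0.96 to 0.17. Without its highest cell, the noise of SNHG12 was -0.061 in WT batch 2 and -0.12 in SCC4 KO batch 1. The cause of these changes was not tested.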
